A study of Mus musculus with 11 samples.

Results

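Ribosome assembly and RNA polymerase I (Pol I) genes were followed in bulk RNA sequencing of mouse short-term haematopoietic stem cells (ST-HSCs), a sorted population of short-lived blood progenitors. The 47 genes were taken by name: Myc, nucleolar assembly factors, proteins of small nucleolar ribonucleoprotein particles (snoRNPs) and Pol I genes. All 47 were found among the 53700 genes of the count table, and all 47 were among the 16639 genes with enough counts to be tested. They fall into 6 roles, with 1 gene for Myc, 5 for Pol I, 4 for multifunctional nucleolar proteins, 8 for snoRNPs, 14 for the small ribosomal subunit and 15 for the large one.

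Cells came from the bone marrow of C57BL/6j mice, which had all received marrow of an acute myeloid leukaemia with the Flt3-ITD mutation and without Tet2. The hosts were CXCL12 WT (titled Cre_neg) or CXCL12 KO (titled Cre_pos), so that the chemokine was intact or deleted in the host. They received vehicle or, together, cytarabine and doxorubicin, which act on DNA, and the FLT3 inhibitor quizartinib. There were 11 libraries, and values below keep the order given here. Vehicle-treated WT hosts gave 240, 253 and 265, and vehicle-treated KO hosts 249 and 275. Drug-treated WT hosts gave 252, 262 and 266 (called WT treated), and drug-treated KO hosts 257, 263 and 276 (called KO treated). The labels give no Cre driver, no measure of how complete the deletion was and no host age, and effects of Cre itself cannot be told apart from those of the deletion. Whether each library is a different animal is not stated either, and p-values then reflect no more than the variation among these 11 samples.

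Ribosomes are made in the nucleolus, where Pol I copies the ribosomal RNA genes with the help of the upstream binding factor Ubtf and the initiation factor Rrn3. The transcript is modified by snoRNPs, which carry fibrillarin (Fbl) or dyskerin (Dkc1), and is cut and folded by separate sets of factors for the small and the large subunit. The transcription factor Myc is known to drive many of these genes through the E-box CACGTG, and the output of this pathway is closely tied to growth and division of blood progenitors.

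Promoter windows of 250 bases before the annotated start were taken from RefSeq (GRCm38.p6), where 41 of the 47 genes had at least 1 window. Myc, Fbl, Npm1, Bop1, Rrp12 and Rrs1 had none. Bases after the start or further upstream were not searched. CACGTG, which reads the same on both strands, was in the windows of 3 of the 41 genes (7.32%), against 9.54% of the 11078 tested genes with a window. The related letters CACGCG (both strands) were in 17.1% of the members and 15.5% of tested genes, the GC-box GGGCGG in 73.2% and 60.8%, and TATAAA in 4.88% and 8.34%. These 3 windows are shown because they hold the canonical Myc motif, with CACGTG in capitals. Nop2 lies at chr6:125131633-125131882 (+ strand) with the motif ending 54 bases before the start. Rrn3 lies at chr16:13780449-13780698 (+ strand) and holds the motif 2 times, the nearer 42 bases before the start. Utp18 lies at chr11:93885767-93886016 (- strand), with the motif 14 bases before the start.
Nop2: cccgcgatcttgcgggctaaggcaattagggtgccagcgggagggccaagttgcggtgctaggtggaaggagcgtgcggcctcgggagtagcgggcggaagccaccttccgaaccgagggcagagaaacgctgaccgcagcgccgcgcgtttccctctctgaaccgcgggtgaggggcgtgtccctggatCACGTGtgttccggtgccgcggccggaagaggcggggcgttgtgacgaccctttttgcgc
Rrn3: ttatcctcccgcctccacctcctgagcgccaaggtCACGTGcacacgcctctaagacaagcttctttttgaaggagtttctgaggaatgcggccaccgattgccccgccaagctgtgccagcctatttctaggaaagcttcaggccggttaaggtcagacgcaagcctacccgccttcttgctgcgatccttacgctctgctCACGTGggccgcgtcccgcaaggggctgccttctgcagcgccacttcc
Utp18: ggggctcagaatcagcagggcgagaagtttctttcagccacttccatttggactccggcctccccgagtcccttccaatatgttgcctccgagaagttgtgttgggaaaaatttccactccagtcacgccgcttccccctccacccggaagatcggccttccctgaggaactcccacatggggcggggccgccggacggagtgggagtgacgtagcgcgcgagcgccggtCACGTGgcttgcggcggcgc
The windows of Mybbp1a at chr11:72441077-72441326 (+ strand) and Nop16 at chr13:54590075-54590324 (- strand) are shown beside them. Among members, these 2 genes had the smallest p-values in opposite directions for KO against WT treated and for treatment of WT hosts. Neither window holds CACGTG.
Mybbp1a: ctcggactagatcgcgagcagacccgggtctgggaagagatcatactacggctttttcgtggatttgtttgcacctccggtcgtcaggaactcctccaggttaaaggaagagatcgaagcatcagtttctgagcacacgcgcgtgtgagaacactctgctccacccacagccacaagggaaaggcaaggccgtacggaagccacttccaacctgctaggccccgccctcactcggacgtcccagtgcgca
Nop16: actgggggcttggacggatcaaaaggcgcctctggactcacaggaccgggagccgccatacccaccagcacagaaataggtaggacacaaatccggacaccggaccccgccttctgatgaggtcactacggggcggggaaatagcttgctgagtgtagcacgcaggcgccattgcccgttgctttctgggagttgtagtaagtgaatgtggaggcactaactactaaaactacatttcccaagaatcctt

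Depth ran from 8.13 to 31.1 M gene counts, and every treated library (22.4 M or more) was deeper than every vehicle library (22.2 M or less). Genes with at least 1 count numbered 13589 (253) to 22121 (252), and reads outside genes were 5.98% (276) to 30.4% (257). Among 10 listed stem and progenitor markers, Kit was at 20.6 to 243 CPM (counts scaled to library size), Cd34 at 111 to 497 CPM and Cd48 at 184 to 900.5 CPM. Slamf1 was at 0 counts in 4 libraries (240, 253, 265 and 257). The 10 stem and progenitor markers together held 535 to 1711 CPM. The 10 granulocyte markers held 37040 to 95670 CPM in WT vehicle, 38970 to 61440 in KO vehicle, 30970 to 154300 in WT treated and 10420 to 34690 in KO treated libraries. The 10 erythroid markers held 89.8 to 102, 213 to 1212, 41.6 to 57.7 and 717 to 6968 CPM in the same order. Cd3e (T cells) was at 0 in 6 libraries. In bulk RNA, fewer cells of a type and less RNA per cell cannot be told apart, and the part of other cells in the results below was not tested.

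Per transcript length, the abundant members were nucleolar and snoRNP proteins, and the scarcest ones were assembly factors and a Pol I subunit. Npm1, the histone chaperone nucleophosmin, led in every library with a mean of 1149 TPM (counts scaled to the median annotated transcript length and to the library). The H/ACA snoRNP proteins Nop10 and Nhp2 followed at 349 and 343 TPM, the box C/D protein Nop56 at 214 TPM and fibrillarin, the methyltransferase of box C/D particles, at 178 TPM. Nucleolin (Ncl) was at 167 TPM, dyskerin at 139 TPM and Myc at 132 TPM. At the other end stood Rrp12 (9.46 TPM), the Pol I large subunit Polr1a (5.37 TPM), Noc3l (4.20 TPM), Urb2 (3.69 TPM) and the small-subunit scaffold Utp20 (2.88 TPM). Nop10 and Nhp2 were within their spread of each other in every group, and Npm1 stood above both in all 11 libraries.

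How much a gene varied differed within each role. On the log2 CPM scale, the SD over 11 libraries in the Pol I group ran from 0.43 for Ubtf to 1.06 for the second-largest subunit Polr1b. It ran from 0.31 for Ncl to 0.94 for Mybbp1a among multifunctional proteins, and from 0.29 for Nop56 to 0.86 for Nhp2 among snoRNP proteins. In the small-subunit group, Ltv1, an export and assembly factor, had 0.33 and Utp20 had 2.25. In the large-subunit group, Pes1 had 0.29 and Noc3l had 1.77. The extremes of Utp20 and Noc3l came from WT vehicle libraries 253 and 265: Utp20 was at 0.0583 (1 count) and 2.83 CPM there and at 15.0 in 240, and Noc3l was at 1.11 and 0.369 CPM and at 9.69 in 240.

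**Figure D1:**
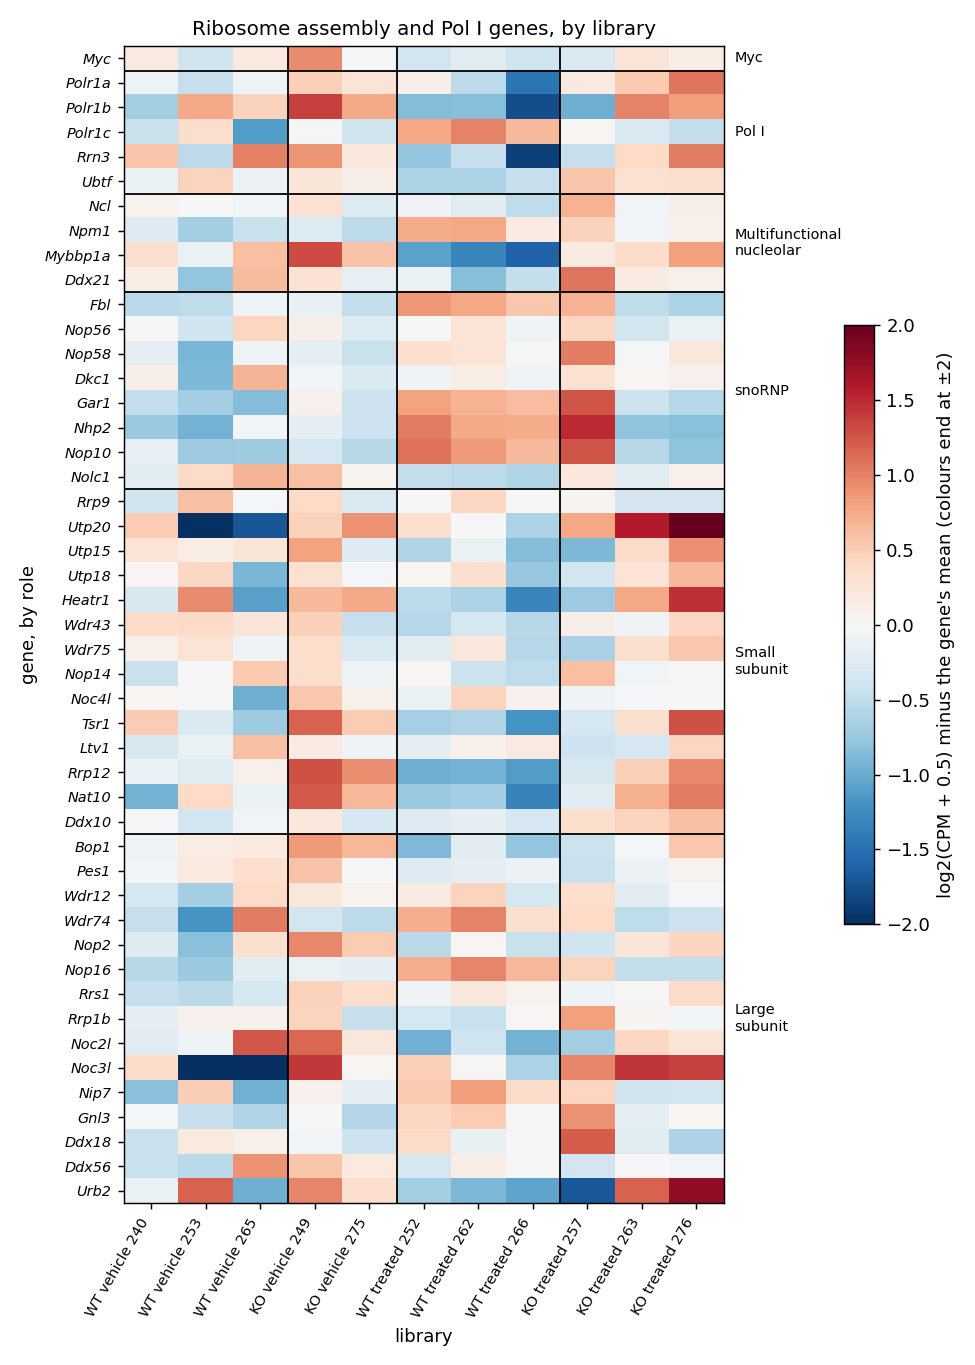
Levels of the 47 genes (rows, by role) in the 11 libraries (columns, by group), as log2(CPM + 0.5) minus the gene's mean over all libraries, with colours ending at 2 either way. Among snoRNP genes, Fbl, Gar1, Nhp2 and Nop10 are red for WT treated hosts and for KO treated 257, while Mybbp1a, Polr1b and Rrp12 are blue in the WT treated libraries.

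Between KO and WT hosts under treatment, most Pol I and small-subunit members had higher values with the KO host. The short snoRNP genes had lower ones in 2 of the 3 KO libraries. Of the 47 genes, 32 had a positive log2 fold change, against 53.9% of all genes tested, with a median of 0.38 against 0.10. With upper-quartile scaling these medians were 0.20 and -0.06. At an unadjusted p under 0.05, 13 were higher (7.13% of all genes) and 2 were lower (3.5%). After Benjamini-Hochberg adjustment of edgeR's quasi-likelihood test, 0 members and 0.0% of all genes passed 0.05, and the smallest adjusted p of a member was 0.379. The DESeq2 Wald test called 3 members, all higher (1.5% of genes called, 1.3% higher), namely Mybbp1a, Rrp12 and Ubtf, and limma voom with quality weights called 24 (25.8%), 15 higher (13.9%) and 9 lower (11.9%). Groups did not overlap for 14 members with KO above WT (9.71% of all genes) and for 2 with KO below WT (9.56%). When 1 library was left out, the number higher at an unadjusted p under 0.05 was between 5 (without WT treated 266, 3.47% of genes) and 15 (without KO treated 257, 11.9%). It was 6 without KO treated 276 (2.91%) and 9 without WT treated 262 (4.18%). Without a filter on low counts, Mybbp1a passed the adjusted edgeR test, where 0.154% of 28001 genes did.

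In the Pol I group, 4 of 5 genes had positive values (53.9% of all genes tested), with a median log2 fold change of 1.15. All 5 were under an unadjusted p of 0.05, 4 higher (7.13% of all genes) and 1 lower (3.5%). Ubtf, which opens ribosomal DNA for Pol I, was at 137, 115 and 117 CPM in KO treated and 60.2, 60.1 and 67.7 CPM in WT treated libraries. Every KO library lay above every WT library, with a log2 fold change of 0.97 ± 0.27 (SE, edgeR adjusted p = 0.383). Polr1a was at 34.1, 43.0 and 63.0 CPM against 32.4, 20.5 and 10.4 CPM, or 1.15 ± 0.43 on the log2 scale, without overlap. Polr1b was at 16.9, 67.7 and 60.8 CPM against 18.2, 18.4 and 9.50 CPM, so that library 257 lay among the WT libraries. Rrn3, which brings Pol I to the promoter, was at 23.9, 44.0 and 68.2 CPM against 19.1, 23.9 and 8.73 CPM. Polr1c, a subunit shared with Pol III, went the other way: it was at 43.9, 34.4 and 30.4 CPM in KO and 73.1, 85.5 and 67.1 CPM in WT treated libraries. Its difference was -1.05 ± 0.38 (log2), without overlap.

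Among the multifunctional nucleolar proteins, Mybbp1a, a Myb-binding repressor that also takes part in ribosomal RNA processing, had the smallest p of all members. It was at 164, 186 and 254 CPM in KO treated and 68.2, 57.2 and 46.9 CPM in WT treated libraries. The log2 fold change was 1.81 ± 0.33 (edgeR adjusted p = 0.379), and the lowest KO library was above the highest WT library. The RNA helicase Ddx21 was at 201, 108 and 103 CPM against 87.6, 52.9 and 68.6 CPM, and nucleolin at 1505, 894 and 1005 CPM against 883, 802 and 650 CPM. Neither gene's groups overlapped, and 257 was the highest library for both. Npm1 was at 1246, 874 and 972 CPM against 1506, 1544 and 1009 CPM, with overlap and a log2 value of -0.39 ± 0.30.

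Of the 14 small-subunit genes, 11 had positive values (53.9% of all genes tested), and the median was 0.70 (log2). At an unadjusted p under 0.05, 6 were higher (7.13% of all genes) and 0 lower (3.5%). Rrp12, an export factor of both subunits, was at 17.9, 31.4 and 44.3 CPM against 11.1, 11.3 and 10.02 CPM. Nat10, the acetyltransferase of 18S ribosomal RNA, was at 22.7, 43.6 and 54.9 CPM against 15.6, 16.4 and 10.2 CPM. Both had a log2 fold change of 1.53, with SE of 0.40 and 0.47 and edgeR adjusted p of 0.383 and 0.405, and in both all KO libraries lay above all WT libraries, with 257 the nearest to them. Tsr1 (1.41 ± 0.53), Heatr1 (1.56 ± 0.60), Ddx10 (0.73 ± 0.30) and Wdr43 (0.67 ± 0.29) were the other 4. Counts for Tsr1 are uncertain, since its exons share 1159 bases with Srr on the opposite strand in the GENCODE annotation and the library kits named in the labels do not mark strand.

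The median log2 difference of the 8 snoRNP genes was -0.22, with 3 positive (53.9% of all genes tested) and 5 negative. In either direction 0 were under an unadjusted p of 0.05, where 7.13% of all genes were higher and 3.5% lower. Nop10 was at 600, 171 and 143 CPM in KO treated and 533, 449 and 391 CPM in WT treated libraries. Nhp2 was at 636, 130 and 127 CPM against 459, 385 and 378 CPM, and Gar1, of the same H/ACA core, at 139, 42.6 and 39.0 CPM against 100.9, 94.0 and 88.5 CPM. In all 3 genes library 257 was above every WT library, while 263 and 276 were below every one. Fibrillarin had the same split at 231, 100.6 and 92.2 CPM against 261, 244 and 208 CPM, with 257 inside the WT range. Dyskerin, whose transcript is longer, was at 323, 268 and 277 CPM against 248, 289 and 249 CPM, or 0.14 ± 0.35 on the log2 scale.

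For large-subunit genes the median log2 difference was 0.04, and 10 of 15 were positive (53.9% of all genes tested). Nop16 was at 150, 79.6 and 79.1 CPM against 184, 219 and 175 CPM (-0.90 ± 0.31), without overlap. Urb2 was at 2.80, 23.8 and 36.2 CPM against 6.09, 5.21 and 4.65 CPM (1.98 ± 0.85), with 257 below all WT libraries. Its exons share 586 bases with Gm45732 on the opposite strand, so its counts are uncertain too. The PeBoW complex, which processes the large-subunit RNA, had values of 0.67 ± 0.32 for Bop1, 0.04 ± 0.28 for Pes1 and -0.07 ± 0.34 for Wdr12, none under an unadjusted p of 0.05.

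**Figure D2:**
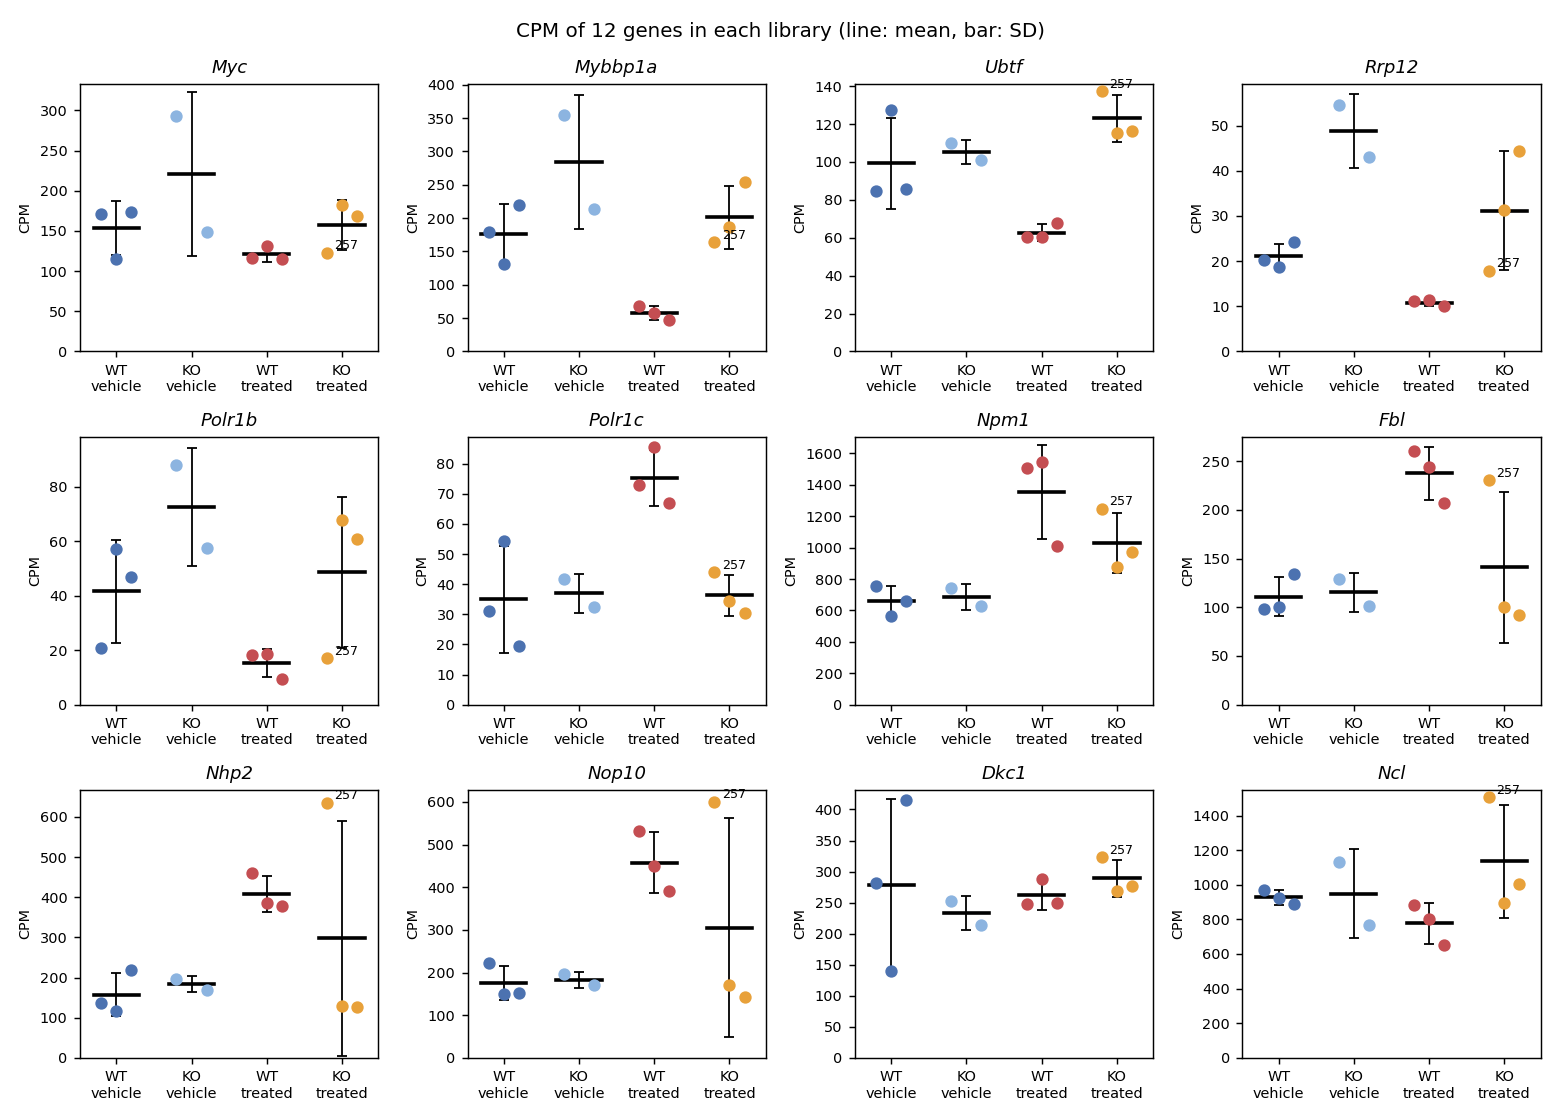
CPM of 12 members in each library, with the group mean (line) and SD (bar) and linear axes that start at 0; KO treated library 257 is marked. Mybbp1a, Ubtf and Rrp12 are lower in all 3 WT treated libraries than in any other library, and for Nhp2 and Nop10 the WT treated libraries and 257 stand above all others.

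KO treated library 257 decided the number of calls. When it was left out, 11 members passed an edgeR adjusted p of 0.05, where 1513 of 16341 genes (9.26%) did, and when any other single library was left out 0 members passed. Of the 11, 6 rose with the KO host (4.38% of genes): Mybbp1a (log2 fold change 1.94, adjusted p = 0.00967), Rrp12 (1.80), Polr1b (2.06), Nat10 (1.81), Ubtf (0.88) and Urb2 (2.49). The 5 that fell (4.88% of genes) were Nhp2 (-1.67, adjusted p = 0.0111), Nop10 (-1.55), Fbl (-1.31), Nop16 (-1.28) and Gar1 (-1.22), of which 4 are snoRNP genes. Library 257 also had the largest share of reads outside genes (30.4%), with 28.7 and 28.8% in WT vehicle 240 and 265. Its Kit level was 20.6 CPM, against 243 and 210 CPM in 263 and 276 and 50.7, 37.7 and 20.6 CPM in WT treated libraries. The other stem and progenitor markers were mixed. Cd34, Slamf1 and Hlf were also lower in 257 than in 263 and 276. Ly6a, Cd48 and Mecom were higher, and Flt3, Meis1 and Procr lay between. The sum of all 10 was 1254 CPM in 257, against 1533 and 824 CPM in 263 and 276. The part of these in the values of 257 was not tested.

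The direction of the members' differences ran with transcript length. Over the 47 genes, Spearman's coefficient between median transcript length and the log2 fold change of KO against WT treated was 0.85, and it was 0.48 over all 16583 tested genes with a length (genes are not independent replicates). The 12 shortest members (up to 1821 bases, among them Nhp2, Polr1c, Nop10, Npm1, Fbl, Gar1, Nop16 and Myc) had a median of -0.52 with 1 positive, and genes of that length in general a median of -0.48 with 26.2% positive. The 12 longest (3977 bases or more, among them Rrp12, Mybbp1a, Ddx21, Heatr1, Ncl, Utp20 and Polr1a) had a median of 1.23 with 12 positive, and genes of that length a median of 0.76 with 82.4% positive. In single libraries, the mean log2 CPM of the 12 short minus that of the 12 long members was 2.28, 2.60 and 2.62 in WT treated, 1.82 in 257, and 0.48 and 0.12 in 263 and 276. It was 0.99, 1.78 and 1.75 in WT vehicle and 0.76 and 0.89 in KO vehicle libraries. Among the Pol I members, the short Polr1c alone was negative.

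With the trend of each library on transcript length removed, 2 members were higher (2.67% of genes) and 0 lower (1.85%) at an unadjusted p under 0.05 in KO against WT treated, and the members' median was 0.14. Mybbp1a had 1.18 ± 0.30 (edgeR adjusted p = 0.655) and Rrp12 had 0.81 ± 0.36, while Nop16 had -0.47 ± 0.27. None of the 5 Pol I genes stayed under an unadjusted p of 0.05: Ubtf had 0.58 ± 0.37, Polr1a 0.62 ± 0.37, Polr1b 1.07 ± 0.52, Rrn3 0.82 ± 0.44 and Polr1c -0.50 ± 0.42. Among small-subunit genes, Nat10 had 0.88 ± 0.47 and Tsr1 0.86 ± 0.45. The Spearman coefficient over the members was then 0.58, against 0.05 over all genes. With 257 left out as well, 0 members passed the adjusted test, and 4 were higher (4.52%) and 4 lower (4.71%) at an unadjusted p under 0.05. Ubtf then had 0.21. Among those 8, Mybbp1a had 1.06, Polr1b 1.38, Myc 0.73 and the box C/D protein Nop58 -0.99.

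**Figure D3:**
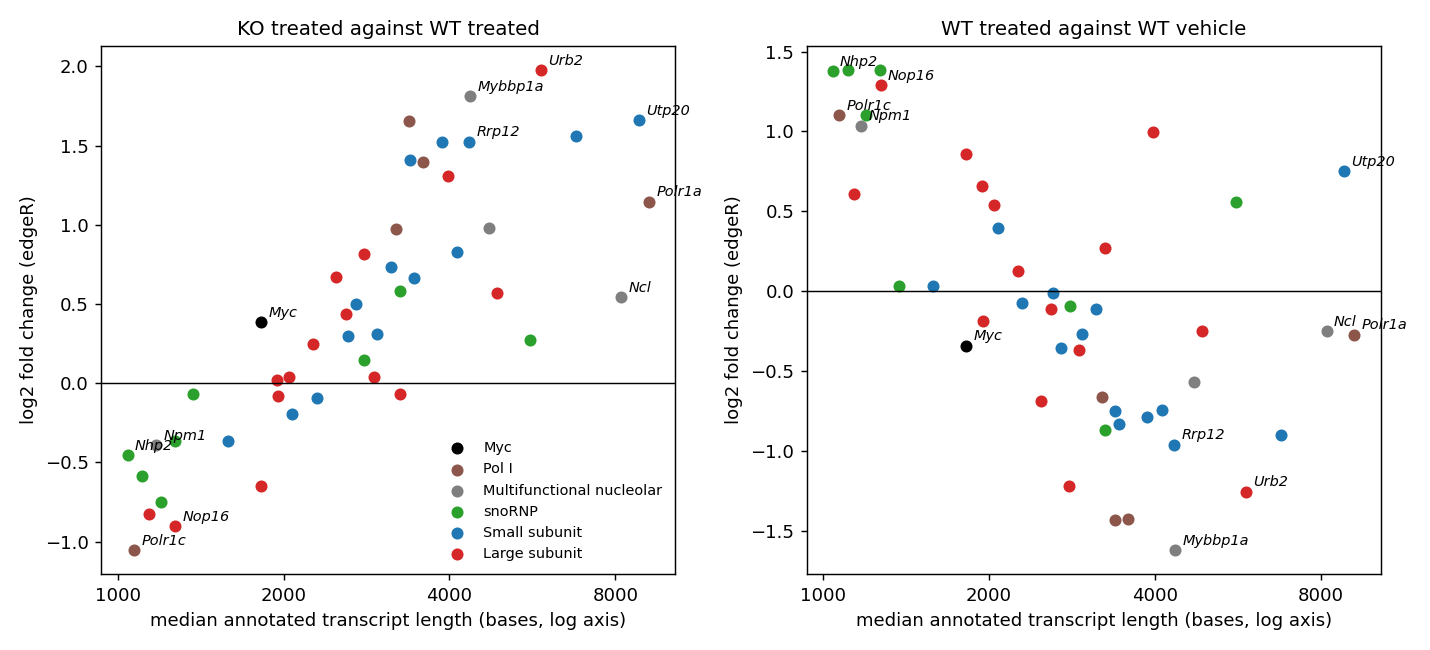
Log2 fold change from edgeR (vertical) against the median annotated transcript length in bases (horizontal, log axis) for the 47 genes, coloured by role, for KO against WT treated (left) and WT treated against WT vehicle (right). Spearman's coefficient is 0.85 on the left and -0.64 on the right, with Gar1, Nhp2, Nop10, Fbl, Nop16 and Polr1c at the short end of both.

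Treatment in WT hosts divided the members. Positive log2 fold changes were found for 19 of 47, against 52.6% of all genes, with a median of -0.11 against 0.09. At an unadjusted p under 0.05, 7 were higher (10.1% of genes) and 8 lower (8.11%), and with upper-quartile scaling 10 (12.9%) and 4 (5.31%). Upper-quartile scaling moved the median of all genes from 0.09 to 0.32 and the members' median to 0.11. After adjustment 0 members and 0.0% of genes passed with edgeR, and DESeq2 called 3 (6.65% of genes), with Nop16 and Npm1 higher (3.07%) and Mybbp1a lower (3.58%). Without a filter on low counts Mybbp1a passed the adjusted edgeR test (0.768% of genes), and 11 members did (12.6%) with a covariate for the reads that fell outside genes. Leaving out 1 library gave 6 to 11 higher at an unadjusted p under 0.05, with the most without 257 (1959 of 16341 genes, 12%). It gave 4 to 9 lower, with 4 each without 265 (8.43%), 252 (5.18%) and 266 (5.27%). Groups did not overlap for 9 higher (17.5%) and 11 lower (10.1%). These libraries of WT treated hosts are also the baseline of the comparison above, so the contrasts are not independent. Mitochondrial genes held 17.2 to 27.4% of counts in WT vehicle and 2.86 to 15.0% in WT treated libraries, and reads outside genes were 18.0 to 28.8% and 6.33 to 16.6%. The 5 T and NK cell markers together held 555 to 748 and 1003 to 1764 CPM. The 6 B cell markers, mostly Cd79b, held 52.2 to 58.4 and 71.1 to 123 CPM. The 10 erythroid markers held 89.8 to 102 and 41.6 to 57.7 CPM. None of these ranges overlapped. Most of the T and NK sum was Nkg7, at 449, 705 and 674 CPM in WT vehicle and 972, 1122 and 1698 CPM in WT treated libraries. Lck overlapped (106, 0.292 and 73.9 against 29.3, 63.2 and 64.8 CPM), and Cd3e, Cd3g and Klrb1c were under 1 CPM in all of these libraries. The fit with reads outside genes as a covariate is given above. The part of the mitochondrial share and of these markers in the differences was not tested.

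For snoRNP genes the median log2 difference was 0.83. At an unadjusted p under 0.05, 4 were higher (10.1% of all genes) and 1 lower (8.11%). Gar1 was at 100.9, 94.0 and 88.5 CPM in WT treated and 40.9, 36.0 and 31.6 CPM in WT vehicle libraries, 1.38 ± 0.45 (edgeR adjusted p = 0.184). Nop10 and Nhp2 were at 1.39 ± 0.49 and 1.38 ± 0.56, and Fbl at 1.10 ± 0.37. All 4 had every treated library above every vehicle library. Nolc1, a chaperone of snoRNPs, was the lower one at 107, 103 and 97.6 CPM against 128, 195 and 238 CPM (-0.87 ± 0.30).

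Npm1 was at 1506, 1544 and 1009 CPM in WT treated and 756, 563 and 660 CPM in WT vehicle libraries. That is a log2 fold change of 1.04 ± 0.31 (edgeR adjusted p = 0.177), with no overlap. Nop16 had 184, 219 and 175 CPM against 75.1, 66.1 and 94.95 CPM, 1.29 ± 0.32 (adjusted p = 0.172 in the same edgeR test), also with no overlap. Mybbp1a stood on the other side at 68.2, 57.2 and 46.9 CPM against 179, 132 and 219 CPM, -1.62 ± 0.33 (edgeR adjusted p = 0.172). Its highest treated library was below its lowest vehicle library.

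Of the 5 Pol I members, 3 were lower (8.11% of all genes) and 1 was higher (10.1%) at an unadjusted p under 0.05. Polr1b (-1.43 ± 0.55), Rrn3 (-1.43 ± 0.54) and Ubtf (-0.66 ± 0.27) were lower, and Polr1c (1.10 ± 0.38) was higher. WT vehicle levels were 20.7, 57.2 and 46.7 CPM for Polr1b, 48.9, 23.0 and 67.4 CPM for Rrn3, 84.7, 127 and 85.8 CPM for Ubtf, and 31.2, 54.4 and 19.3 CPM for Polr1c. Treated libraries lay outside the vehicle range for Polr1b, Ubtf and Polr1c but not for Rrn3, where treated 262 was above vehicle 253. Polr1a, at 27.5, 21.3 and 27.6 CPM in vehicle, had -0.27 ± 0.43.

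Here the length pattern had the opposite sign. Spearman's coefficient with transcript length was -0.64 over the members and -0.34 over all genes. The 12 short members had a median of 1.07 with 11 positive (75.1% of all genes of that length), and the 12 long ones a median of -0.42 with 3 positive (33.3%). Genes of these lengths in general had medians of 0.71 (short) and -0.43 (long). With the length trend removed, 0 members were higher (4.73% of genes) and 8 lower (12.1%) at an unadjusted p under 0.05, and the median of all genes was -0.30 and that of the members -0.38. The short members then had values of 0.42 ± 0.33 for Nop10, 0.35 ± 0.41 for Nhp2, 0.48 ± 0.36 for Gar1, 0.14 ± 0.29 for Fbl, 0.08 ± 0.26 for Npm1, 0.38 ± 0.27 for Nop16 and 0.04 ± 0.41 for Polr1c. The 8 were Mybbp1a (-1.499 ± 0.30), Rrn3, Noc2l, Bop1, Polr1b, Nop56, Myc (-0.87 ± 0.31) and Rrp12. Without 257, which is in neither group but adds to the fit's shared spread, 7 members passed an edgeR adjusted p of 0.05 (6.19% of genes): Nop16, Nop10, Gar1, Nhp2, Fbl and Npm1 rose (3.45% of genes) and Mybbp1a fell (2.74%).

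Deletion of the host factor without treatment was compared between 2 KO and 3 WT vehicle libraries. Positive log2 fold changes were found for 38 of 47 members, against 48.7% of all genes, but the median was 0.15 against 0.00. At an unadjusted p under 0.05, 4 were higher (4.8% of genes) and 0 lower (1.98%), and 11 were higher without overlap (13.2%) and 0 lower (7.47%). After adjustment 0 passed with edgeR (0.0% of genes), DESeq2 (1.35%) or limma voom (0.0%). KO vehicle library 249 carried this pattern: without it, 21 of 47 were positive, the median was -0.03 and 0 members were under an unadjusted p of 0.05 (4.14% of genes higher, 0.45% lower). Without KO vehicle 275, 44 were positive and the median was 0.40, and without WT vehicle 253 and 265 it was 0.49. Rrs1, a factor that brings the 5S particle to the large subunit, was at 81.3 and 75.8 CPM in KO and 42.7, 40.6 and 46.1 CPM in WT vehicle libraries, 0.87 ± 0.29 (edgeR adjusted p = 0.705). Rrp12 was at 54.5 and 43.0 CPM against 20.4, 18.8 and 24.1 CPM, 1.21 ± 0.43. The 28S ribosomal RNA methyltransferase Nop2 had 117 and 84.7 CPM against 49.8, 33.4 and 74.5 CPM (0.94 ± 0.40), and Nat10 had 62.8 and 42.3 CPM against 13.4, 35.2 and 24.1 CPM (1.12 ± 0.50). In all 4 both KO libraries lay above the WT range. With the length trend removed, 0 members were under an unadjusted p of 0.05 (3.91% of genes higher, 5.29% lower), and the members' median was -0.19 where that of all genes was -0.34.

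Treatment of KO hosts gave no member a difference under an unadjusted p of 0.05 in the edgeR fit with all libraries. Positive values were found for 26 of 47 members (56.1% of all genes), with a median log2 fold change of 0.07 against 0.12. Among all genes 2.7% were higher and 0.974% lower at that level. In all, 0 members passed after adjustment with edgeR (0.0% of genes), DESeq2 (0.138%) or limma voom (0.0%). The median was -0.16 without KO treated 257, -0.07 without 276 and -0.17 without KO vehicle 275. Groups did not overlap for 5 higher (12.3%) and 4 lower (10.1%) members. Nop58, of the box C/D core, had the smallest p, at 360, 173 and 206 CPM in KO treated and 156 and 129 CPM in KO vehicle libraries, 0.79 ± 0.39. Bop1 had 58.7, 76.9 and 115 CPM against 144 and 125 CPM (-0.69 ± 0.35), Npm1 had 0.59 ± 0.35 and Pes1 -0.47 ± 0.31, each with an edgeR adjusted p of 1.0. KO vehicle levels of the snoRNP genes were 129 and 101.4 CPM for Fbl, 61.5 and 43.2 CPM for Gar1, 197 and 170 CPM for Nhp2, and 197 and 170 CPM for Nop10. KO treated 263 and 276 were below these ranges for Fbl, Gar1 and Nhp2, and 257 was above all 4.

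The test of the difference itself, the effect of the host's genotype under treatment minus that under vehicle, passed for 0 members and 0.0% of genes with edgeR, and for 0 members with DESeq2 (0.349% of genes) or limma voom (0.0%). At an unadjusted p under 0.05, Mybbp1a (1.12 ± 0.48) and Ubtf (0.89 ± 0.40) were higher (3.04% of genes) and Nop16 (-1.23 ± 0.47) was lower (3.27%), each with an edgeR adjusted p of 0.767. Rrs1 followed at -0.83 ± 0.40. The members' median was 0.13 against 0.11 for all genes, and with upper-quartile scaling it was -0.02 against -0.04. Without KO treated 276 it was -0.08.

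Myc itself did not pass in any comparison. It was at 171, 115 and 174 CPM in WT vehicle, 293 and 149 CPM in KO vehicle, 116, 132 and 115 CPM in WT treated and 123, 182 and 168 CPM in KO treated libraries. All 4 groups overlapped with at least 1 other. Its log2 fold change was 0.38 ± 0.32 for KO against WT treated, 0.53 ± 0.35 for KO against WT vehicle, -0.34 ± 0.32 for treatment of WT hosts and -0.48 ± 0.35 for treatment of KO hosts. Of the 10 partners and antagonists of Myc listed beside it, 0 were under an unadjusted p of 0.05 in the first 3 of these, and Max, its dimer partner, had 1.31 ± 0.52 in the last (edgeR adjusted p = 1.0). The 3 genes with CACGTG in their windows, Nop2, Rrn3 and Utp18, had 0.43, 1.395 and 0.30 for KO against WT treated and -0.11, -1.43 and -0.01 for treatment of WT hosts. They had 0.94, 0.10 and 0.20 for KO against WT vehicle, and the signs differed for treatment of KO hosts (-0.62, -0.14 and 0.09) and for the difference of the host effects (-0.51, 1.29 and 0.10).

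A further 82 genes of ribosome assembly and Pol I had values in both directions. For KO against WT treated, 44 of 82 were positive (53.7%, against 53.9% of all genes). At an unadjusted p under 0.05, 6 were higher (7.13% of all genes) and 3 lower (3.5%), so these counts were near the shares over all genes. Bms1, a GTPase of the small-subunit processome, had 1.87 ± 0.45, Nol6 of the same particle had 2.11 ± 0.61, and the helicase Ddx54 had 1.496 ± 0.36, all with an edgeR adjusted p of 0.383. Ebna1bp2, a large-subunit factor, had -0.87 ± 0.32. Of the other Pol I subunits, Polr1d (-0.75 ± 0.39), Polr1e (-0.36 ± 0.39), Polr1f (-0.19 ± 0.34) and Polr1h (-0.83 ± 0.60) were negative, unlike most Pol I members. Polr1g (0.21 ± 0.62) was positive, and none of these subunits was under an unadjusted p of 0.05. Treatment of WT hosts put 17 higher (10.1% of all genes) and 13 lower (8.11%). The methyltransferase Emg1 at 1.57 ± 0.36 and Fcf1 at 1.66 ± 0.43 were on one side, and Pwp2 at -2.12 ± 0.59 and Ddx54 at -1.43 ± 0.36 on the other. Polr1d (1.30 ± 0.40), Polr1f (0.99 ± 0.34) and Polr1h (1.56 ± 0.61) were among the higher ones, while Polr1e had 0.14 ± 0.385 and Polr1g -0.72 ± 0.63. There were 5 higher (4.8% of all genes) and 2 lower (1.98%) for KO against WT vehicle. For treatment of KO hosts 1 was higher (2.7%) and 0 lower (0.974%), and 0 passed after edgeR's adjustment in any of the 4 comparisons (0.0% of all genes). Leaving out 257 gave 5 higher (4.38% of all genes) and 10 lower (4.88%) calls for KO against WT treated.

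As a single score, the mean log2 CPM of the 47 genes was 6.32, 6.28 and 6.47 in KO treated and 6.08, 6.15 and 5.78 in WT treated libraries. It was 6.61 and 6.16 in KO vehicle and 6.00, 5.83 and 6.04 in WT vehicle libraries. KO libraries thus lay above WT libraries under both conditions, with group means of 6.36 ± 0.10 (SD, n = 3) against 6.00 ± 0.20 (n = 3), and 6.39 ± 0.32 (n = 2) against 5.96 ± 0.11 (n = 3). In vehicle libraries the gap was small, with KO 275 at 6.16 and WT 265 at 6.04. The scarce Utp20 and Noc3l add to it, at 19.9 and 7.53 CPM in 275 and 2.83 and 0.369 CPM in 265. Without KO vehicle 249, 21 of 47 members were positive in that comparison, with a median log2 fold change of -0.03. The median log2 CPM of all tested genes moved alongside: 3.35 ± 0.20 and 3.09 ± 0.12 in treated KO and WT, and 3.33 ± 0.05 and 3.07 ± 0.30 in vehicle KO and WT libraries. By role, the Pol I score was 5.67 ± 0.36 against 4.87 ± 0.41 in treated KO and WT libraries and the small-subunit score 5.53 ± 0.44 against 4.85 ± 0.24. The snoRNP score was 7.45 ± 0.68 against 7.76 ± 0.12, with 257 at 8.23. The summed level of 8 cell-cycle genes overlapped between treated KO (1681 to 3006 CPM) and WT (1547 to 1887 CPM) libraries, and the erythroid sum did not (717 to 6968 against 41.6 to 57.7 CPM). The part of these in the scores was not tested.

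**Figure D4:**
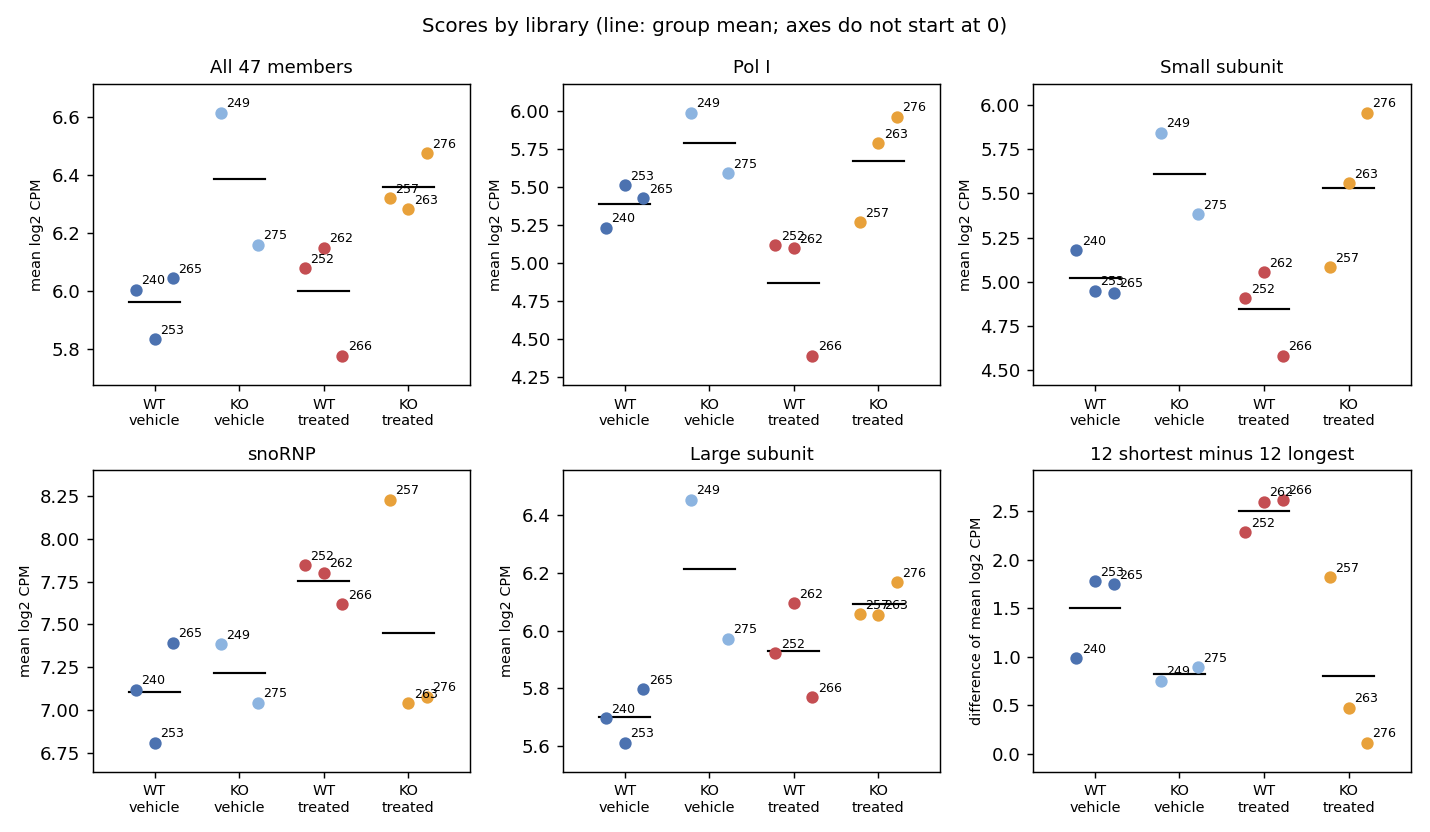
Mean log2 CPM in each library for all 47 genes and for 4 roles, and the difference between the 12 shortest and the 12 longest members, with group means as lines; the axes do not start at 0. The KO libraries lie above the WT libraries for the mean of the 47 genes, and the last panel runs from 0.12 (KO treated 276) to 2.62 (WT treated 266).

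Some counts carry limits from the annotation. In GENCODE, 13 of the 47 genes share exon bases with a gene on the opposite strand, most in Tsr1 (1159 bases), Noc2l (598 bases with Samd11) and Urb2 (586 bases), and Mybbp1a shares 131 bases with Spns2 and Nhp2 shares 42 with Rmnd5b. Reads of the 2 partners cannot be told apart there. Npm1 has processed pseudogenes, and reads that fit these as well may have been set aside.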

How the data were processed

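Bulk RNA of sorted ST-HSCs was sequenced in 11 libraries made with the SMARTer Ultra Low Input and Nextera XT kits, per the labels' protocols. The authors deposited raw counts per Ensembl gene, whole numbers without normalization, for 53700 genes. The submitters' processing notes name GRCm39, STAR 2.7.9a, Trim Galore 0.6.7, bcl2fastq, DESeq2 and HTSeq (given version 0.6.7), with no roles. The annotation release, strand setting and filters are not given in the sources used here. The table's 5 summary lines were left out of library sizes and tests; reads outside genes made up 5.98% to 30.4%. Counts carry no molecular identifiers, and depth was 8.13 to 31.1 M gene counts.

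With edgeR 4.0.16 (R 4.3.3), filterByExpr kept 16639 genes, libraries were scaled by TMM, and 1 model of the 4 groups fitted by robust quasi-likelihood (biological coefficient of variation 0.783), with 5 contrasts and Benjamini-Hochberg adjustment over all genes tested. The SE was taken as the size of the log2 fold change over the root of its F value. Scores are mean log2 CPM with a prior count of 2. Symbols, the opposite-strand overlaps and median lengths of a gene's transcripts came from the basic GENCODE M21 set (GRCm38; lengths for 99.7% of tested genes); the counts are on another build, so only the RefSeq windows have coordinates. The members, lists and tests were chosen with earlier results of these data known, and the sets of 12 short and 12 long members after the data were seen. The genes named are Myc, Ncl, Npm1, Fbl, Dkc1, Polr1a, Polr1b, Polr1c, Rrn3 and Ubtf, the 4 members with the smallest p in each contrast, those with the largest and smallest spread in each role, and others that a count or a call turns on, which were chosen after their values were seen. Alternatives were other scalings, filters and tests (DESeq2 1.42.0, limma 3.58.1), a covariate for reads outside genes, removal of the length trend (lowess, span 0.3), and leaving out libraries. Only the edgeR fit for KO against WT treated was run on simulated data with known changes. Limits for passing were set only at a spread smaller than that of these data.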

Additional observations from a re-analysis of the deposited data

How the results depend on the processing

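No paired analysis was possible because the groups share no replicate numbers. Values here are from the 47 genes unless all genes are named. Without filter on low counts, with DESeq2 and with limma voom, 1, 3 and 24 members were called for KO against WT treated, against 0, where 0.154, 1.5 and 25.8% of genes were called, and leaving out 1 library gave 0 to 11. For treatment of WT hosts, no filter gave 1 call (0.768% of genes), DESeq2 3 (6.65%) and the covariate for reads outside genes 11 (12.6%), and leaving out 1 library gave 0 to 7. The other contrasts had 0 calls under every alternative run. The median log2 fold change for KO against WT treated was 0.20 with upper-quartile scaling, 0.14 with the length trend removed and 0.059 with that and without 257 (chosen after the data were seen); leaving out 1 library gave 0.28 to 0.50. For KO against WT vehicle it was 0.49 without 253 and 265, -0.19 with the length trend removed and -0.18 also without 257, and -0.03 to 0.40 leaving out 1 library. For treatment of WT hosts it was 0.11 with upper-quartile scaling, -0.38 with the length trend removed and -0.38 also without 257, and -0.25 to -0.05 leaving out 1 library. For treatment of KO hosts it was -0.13 with limma voom and -0.24 with the length trend removed and without 257, and -0.17 to 0.27 leaving out 1 library. For the difference of the host effects it was -0.077 with limma voom, -0.14 without 253 and 265 and 0.32 with the length trend removed, and -0.082 to 0.35 leaving out 1 library. In the first 3 of these settings the median of all genes moved too, to -0.11, -0.0755 and 0.34. The sign of the members' median thus depended on the setting in all contrasts but KO against WT treated, and the cause was not tested. The 4 members with the smallest p in each contrast kept their sign under every alternative run, and 24 of their values passed the threshold where the reported one did not, while 412 stayed on their side of it. KO vehicle has 2 libraries, so leaving out 1 assumes that the other varies like the other groups. The lowest count of a member was 1 (Utp20 in 253), and depth limits what Utp20, Noc3l and Urb2 can show.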

Other observations

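Outside the members and the further pathway genes, the 10 tested genes whose log2 CPM over the 11 libraries ran most like the score of the 47 genes had a Spearman coefficient of 0.91 to 0.96, and they were chosen for it. Ppp1r8, a nuclear regulator of protein phosphatase 1, was the only 1 of them with a mean log2 CPM above 1 (5.01, coefficient 0.92). Pfn2 (0.96), Sh2d4a (0.95), Pklr (0.94), Msrb3 (0.94) and Susd2 (0.94) came first, at mean log2 CPM of -1.16, -1.15, -1.46, 0.53 and -0.91.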
